A study of Mus musculus with 12 samples.

Results

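The genes described here are the mouse translation initiation and elongation factors, taken by name as every symbol that starts with Eif1 to Eif6 or with Eef1 or Eef2, without the eIF2 kinases (Eif2ak). The rule finds 63 of the 23352 gene symbols in the files. Of these, 59 passed the filter on low values, as did 11431 genes in all. It asks that 2 or more libraries reach 1 FPKM, a read density scaled to transcript length and library size. RNA was measured in regulatory T cells (Tregs) of spleen and lymph nodes, sorted from C57BL/6 females as CD62Llo and CD62Lhi cells. CD62L is a lymph node homing receptor whose loss from the surface marks activated T cells. KO mice were Foxp3YFP-Cre/Foxp3WT;Ezh2fl/fl and HET mice were Foxp3YFP-Cre/Foxp3WT;Ezh2fl/+, so the HET controls carry the Cre and 1 floxed Ezh2 allele too. Ezh2 is the histone H3 lysine 27 methyltransferase of the Polycomb complex PRC2. The KO CD62Llo, KO CD62Lhi and HET CD62Llo groups had 3 libraries each, and HET CD62Lhi had 2, since replicate 3 is labelled as removed by the submitters over its few reads. Foxp3 is X-linked, so a female with 1 Cre allele holds Tregs with and without active Cre, and the labels used here do not state whether the sort selected YFP. The labels also do not say that replicates came from separate animals, so p-values measure the spread between these libraries, which may be technical.

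Initiation begins when eIF4E, held by the scaffold eIF4G with the helicase eIF4A, binds the 5′ cap of an mRNA, and eIF2 brings the initiator tRNA to the small ribosomal subunit with eIF3, eIF1 and eIF1A. Elongation then adds amino acids: eEF1A delivers each charged tRNA, the eEF1B subunits recharge eEF1A with GTP, and eEF2 moves the ribosome along the mRNA. The kinase mTORC1 promotes both steps, by releasing eIF4E from the 4E-binding proteins and by restraining eEF2 kinase, which inhibits eEF2. mRNAs of elongation factors and ribosomal proteins commonly start with a C followed by a run of pyrimidines, the terminal oligopyrimidine (TOP) motif, through which mTORC1 controls their translation. In T cells these pathways are engaged on activation.

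The start regions of 5 members are printed because the largest group of members that fell in CD62Llo cells, the elongation factors, is known for the TOP motif. These 5 show annotated starts with and without a pyrimidine run nearby. The run marked here need not begin with a C or at the start, and shorter runs are not marked. It is therefore no measure of whether the TOP motif is present. Each sequence runs from 50 bases before to 10 bases from the annotated start, 5′ to 3′ on the gene's strand, and comes from RefSeq on GRCm38.p6. Capitals mark an unbroken run of at least 8 C or T within 10 bases of either side of the start, extended to its full length within the bases printed, or the letters TATAA anywhere in the 50 bases before it. In order, they lie at chr9:78481715-78481774 on the minus strand, chr1:63176781-63176840 on the plus strand, chr10:81176581-81176640 on the plus strand, chr7:108934365-108934424 on the plus strand and chrX:94212642-94212701 on the minus strand.
Eef1a1: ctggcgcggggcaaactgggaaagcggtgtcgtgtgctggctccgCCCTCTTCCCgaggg
Eef1b2: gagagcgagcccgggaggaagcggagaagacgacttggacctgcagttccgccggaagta
Eef2: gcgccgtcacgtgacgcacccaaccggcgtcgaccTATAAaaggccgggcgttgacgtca
Eif3f: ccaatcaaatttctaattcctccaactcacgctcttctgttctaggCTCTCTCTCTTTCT
Eif2s3x: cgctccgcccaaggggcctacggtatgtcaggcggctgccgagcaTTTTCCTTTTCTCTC
The run was 10 bases at Eef1a1, 15 at Eif3f and 16 at Eif2s3x, of which the last base at both Eif3f and Eif2s3x lies past the printed end, and neither Eef1b2 nor Eef2 held one at this annotated start. Of the 48 members with a listed start, 11 held such a run (22.9%), against 2772 of 17492 protein-coding genes (15.8%). TATAA, searched on the gene's strand, lay before the start of 1 of the 48 members (Eef2) and of 6.55% of the protein-coding genes. Among the members that fell in HET CD62Llo cells, described below by their values, 5 had a listed start and 1 of them held a pyrimidine run. A match is a description of these letters and not of a site in use, and annotated starts can lie some bases away from the start used in these cells.

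Ezh2 had 12.5, 16.8 and 14.4 FPKM in KO CD62Llo cells and 9.15, 11.5 and 11.02 FPKM in KO CD62Lhi cells, against 18.2, 17.8 and 20.5 FPKM in HET CD62Llo cells and 12.7 and 12.5 FPKM in HET CD62Lhi cells. KO lay below HET without overlap in both fractions, but neither difference passed the test (limma, adjusted p = 0.11 in CD62Llo and 1.0 in CD62Lhi). The sources used here do not say which exons the floxed allele removes, and a value over the whole gene therefore does not check the deletion. Foxp3 was at 75.9 to 96.8 FPKM in every library used. The depth implied by the deposited intervals was about 6230000 to 25000000 fragments a library.

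The elongation factor genes Eef1a1, Eef2 and Eef1g stood above every initiation factor gene in group mean level. Eef1a1, which encodes the eEF1A that nearly all cells use, was the highest member at 5497 ± 269 FPKM in KO CD62Llo, 6366 ± 324 FPKM in KO CD62Lhi and 5473 ± 207 FPKM in HET CD62Llo (SD, n = 3 each), and 6558 ± 78.3 FPKM in HET CD62Lhi (SD, n = 2). It ranked between 3 and 5 among all gene symbols in each library. Eef2 followed at group means of 1046 to 1341 FPKM, then Eef1g at 532 to 653 FPKM and Eef1b2 at 389 to 506 FPKM, which was below Eif5a in both CD62Llo groups. Eef1d, at 115 to 139 FPKM, lay among the initiation factor genes, and Eef2k was far lower at 2.05 to 3.53 FPKM. All 63 members together held 1.90% to 2.15% of the summed FPKM of a library.

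Levels differed within each step of initiation. The highest member of the eIF4 factors was the helicase gene Eif4a1 at group means of 300.0 to 317 FPKM, about as high as the start-codon factor gene Eif1 at 282 to 303 FPKM. The cap-binding gene Eif4e itself was at 19.5 to 24.4 FPKM, below the scaffold gene Eif4g1 at 69.0 to 73.6 FPKM, and Eif4e3 was the lowest tested one of these factors at 9.28 to 11.1 FPKM. Subunits of eIF3 ranged from Eif3h, at 285 to 320.0 FPKM, to Eif3b at 63.5 to 64.4 FPKM, if the uncertain pair Eif3j1 and Eif3j2 is left aside. Among the initiator tRNA and exchange factors, Eif2s3x was the highest tested eIF2 subunit gene at 58.8 to 62.4 FPKM, and Eif2s1 the lowest tested one at 23.7 to 24.7 FPKM. The eIF2B subunits ran from Eif2b2 at 32.9 to 35.6 FPKM to Eif2b3 at 8.61 to 9.46 FPKM. Eif1a was the lowest of the eIF1 and eIF1A genes at 12.7 to 14.7 FPKM, and among the joining factors Eif5 was at 54.5 to 62.0 FPKM and Eif5b at 15.3 to 17.1 FPKM. Eif5a, whose hypusine-bearing product helps ribosomes past difficult sequences, was at 372 to 417 FPKM, and its paralogue Eif5a2 at 1.83 to 2.74 FPKM. The eIF4E-binding genes ran from Eif4ebp2 at 63.9 to 68.3 FPKM to Eif4ebp1 at 8.16 to 12.9 FPKM, and Eif2a and Eif2d were at 19.3 to 22.5 FPKM.

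**Figure D1:**
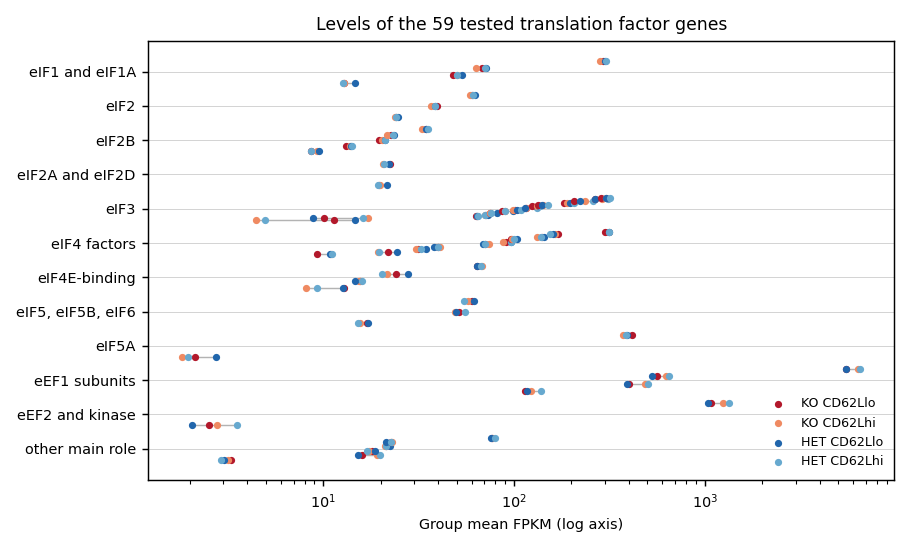
Group mean FPKM on a log axis of the 59 tested members, 1 row of points per gene, sorted into roles; colours mark the 4 groups and grey lines join the group means of a gene. The elongation factor genes Eef1a1 and Eef2 lie to the right of every initiation factor gene. Eif5a2 lies between 1.83 and 2.74 FPKM and is the lowest tested member in each group but HET CD62Llo, where Eef2k is lower.

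The first question of the design is how CD62Llo Tregs differ from CD62Lhi Tregs, and it was asked in each genotype. In HET mice the elongation factor genes fell in CD62Llo cells while the initiation factor genes mostly did not pass the test. Of the 59 members, 2 rose and 7 fell (limma on log2(FPKM + 1), Benjamini-Hochberg adjusted p under 0.05 over all 11431 genes). In the same comparison 18.8% of all tested genes rose and 8.88% fell, 27.7% in all, so 9 of 59 members (15.3%) is below the share over all genes. Of the 7 tested genes named Eef, 6 fell and all 7 had a change below 0, although Eef1a1 after quantile normalization and Eef1e1 at equal summed FPKM were above it. Their median was -0.30 log2, against 0.07 log2 over all tested genes. Of the 52 tested genes named Eif, 2 rose and 1 fell, with a median of 0.02 log2.

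Eef1a1 (chr9:78478454-78481724, mm10) had 5511, 5657 and 5250 FPKM in HET CD62Llo libraries, against 6614 and 6503 FPKM in HET CD62Lhi libraries. All 3 CD62Llo libraries lay below both CD62Lhi libraries. The change was -0.26 log2 (SE 0.07, adjusted p = 0.023, limma), and it lost the call without HET CD62Lhi replicate 1 (adjusted p = 0.13), HET CD62Lhi replicate 2 (0.098) or HET CD62Llo replicate 3 (0.059), as it did with no filter on low values (0.35) or in a fit of the compared groups only (0.086).

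The eEF1B subunits, which reload eEF1A with GTP, moved the same way. Eef1b2 (chr1:63176831-63180486), the catalytic eEF1B alpha subunit, had 393, 393 and 383 FPKM in HET CD62Llo against 514 and 497 FPKM in HET CD62Lhi. Its change of -0.38 log2 (SE 0.06, adjusted p = 0.0013) was the one among the elongation factors that kept its call in each of the 21 alternative fits that left HET CD62Lhi replicate 3 out. Eef1g (chr19:8967041-8978180), the structural gamma subunit, had 550.1, 531 and 516 FPKM in HET CD62Llo against 657 and 650.0 FPKM in HET CD62Lhi. The groups did not overlap, and the change was -0.30 log2 (SE 0.05, adjusted p = 0.0032). Eef1d (chr15:75894800-75909340), the second exchange subunit, had 130.1, 114 and 106 FPKM in HET CD62Llo against 142 and 136 FPKM in HET CD62Lhi. Its change of -0.26 log2 (SE 0.08, adjusted p = 0.047) was borderline: it lost its call in 8 of the 11 fits that left out 1 library and with the replicate number as a block (adjusted p = 0.078).

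Eef2 (chr10:81176631-81182509), the translocase, had 1139, 1034 and 965 FPKM in HET CD62Llo against 1342 and 1341 FPKM in HET CD62Lhi. The change was -0.36 log2 (SE 0.07, adjusted p = 0.0041), with all CD62Llo libraries below all CD62Lhi libraries. Eef2k (chr7:120842831-120907219), the kinase that inhibits eEF2, had 2.50, 2.05 and 1.61 FPKM in HET CD62Llo against 3.72 and 3.34 FPKM in HET CD62Lhi. Its change of -0.58 log2 (SE 0.13, adjusted p = 0.0088) was the largest fall among the called members, so the factor and its inhibitor fell together. Because 1 was added to each FPKM, the change of a gene as low as Eef2k is understated: with 0.1 added it was -0.77 log2. Without HET CD62Lhi replicate 1 the call was lost (adjusted p = 0.075). Eef1e1, which despite its name belongs to the tRNA synthetase complex, had a change of -0.08 log2 that did not pass the test.

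Summed over the eEF1 subunits and eEF2, the elongation factors held 7557 ± 292 FPKM in HET CD62Llo (SD, n = 3) and 9198 ± 101 FPKM in HET CD62Lhi (SD, n = 2). Without Eef1a1 the sums were 2085 ± 121 FPKM in HET CD62Llo and 2640 ± 22.7 FPKM in HET CD62Lhi. As a share of the summed FPKM of a library, the elongation factors held 1.29%, 1.34% and 1.27% in HET CD62Llo, against 1.43% and 1.41% in HET CD62Lhi.

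**Figure D2:**
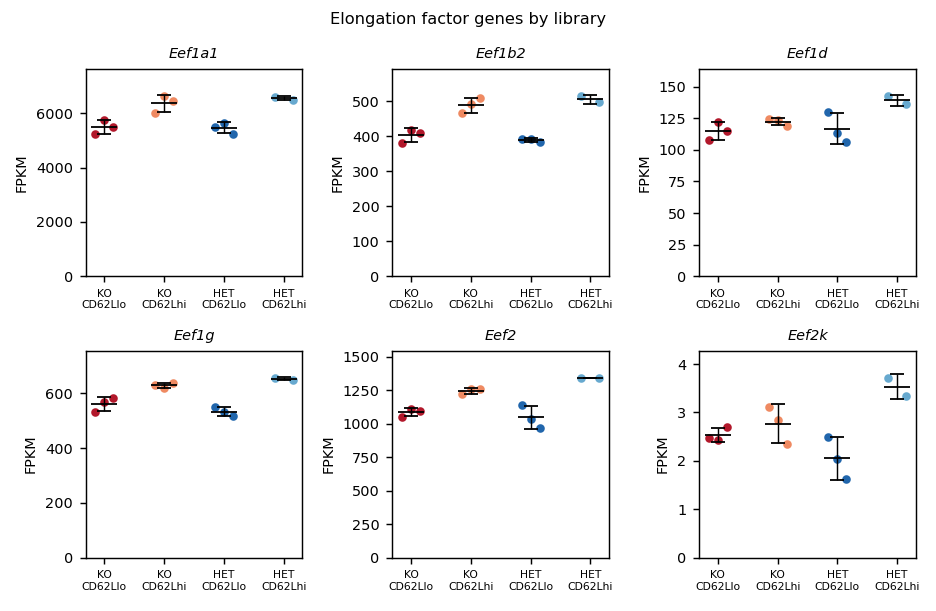
FPKM of 6 elongation factor genes in each library (points), with the group mean (horizontal line) and SD (whiskers), for KO CD62Llo, KO CD62Lhi, HET CD62Llo and HET CD62Lhi from left to right; each axis starts at 0. In each panel the HET CD62Llo points lie below the HET CD62Lhi points, whereas in KO the Eef1d and Eef2k points of the fractions overlap.

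Markers of other cell types also differed between the fractions. The 6 B cell markers summed to 17.9 to 29.7 FPKM in HET CD62Llo against 74.5 to 90.8 FPKM in HET CD62Lhi, with Pax5, Ms4a1 and Ebf1 under a mean of 1 FPKM in CD62Llo. The 5 CD8 T and NK cell markers summed to 15.3 to 17.7 FPKM in HET CD62Llo against 39.2 to 44.6 FPKM in HET CD62Lhi, carried by Cd8a and Cd8b1. In this list Klrb1c alone went the other way, at a mean of 2.95 FPKM in HET CD62Llo against 0.355 FPKM in HET CD62Lhi. Ncr1 averaged 0.0286 FPKM in HET CD62Llo against 0.4525 FPKM in HET CD62Lhi, and Eomes 0.636 FPKM against 1.17 FPKM. The 6 measured myeloid markers summed to 49.1 to 102 FPKM in HET CD62Llo against 12.5 to 26.2 FPKM in HET CD62Lhi, led by Lyz2 at a mean of 55.4 FPKM in HET CD62Llo, with Itgam and Cd14 under 1 FPKM in both. The 3 measured plasma cell markers summed to 40.1 to 48.6 FPKM in HET CD62Llo against 29.9 to 37.0 FPKM in HET CD62Lhi. Most of this was Xbp1, at means of 37.2 FPKM in HET CD62Llo and 28.5 FPKM in HET CD62Lhi, with Sdc1 under 1 FPKM in both. The 4 measured red cell markers summed to 16.9 to 183 FPKM in HET CD62Llo and 108 to 127 FPKM in HET CD62Lhi, which overlap. The part of all these cells in the change of the elongation factors was not tested. In bulk RNA, fewer cells of a type and less RNA per cell cannot be told apart.

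Among the eIF3 subunits, the largest of the initiation complexes, 1 of 14 fell in HET CD62Llo and none rose, with 10 of 14 below 0 and a median of -0.07 log2. The gene that fell, Eif3k, had 288, 266 and 246 FPKM in HET CD62Llo against 314 and 307 FPKM in HET CD62Lhi. The change was -0.22 log2 (SE 0.07, adjusted p = 0.049) and lost its call in 9 of the 11 fits without 1 library and with the replicate block (adjusted p = 0.081). Eif3f and Eif3g lay just outside the threshold at -0.23 and -0.22 log2 (adjusted p = 0.055 and 0.059), in both cases with no overlap between the fractions. Eif3a, the core scaffold subunit, changed by 0.04 log2 and Eif3e by -0.06 log2, and neither passed the test.

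The genes that rose in HET CD62Llo act on eIF4E or resemble eIF5A. Eif4enif1 (chr11:3202353-3244588) encodes 4E-T, which carries eIF4E into the nucleus and into processing bodies and holds mRNAs in a repressed state. It had 26.6, 29.2 and 27.4 FPKM in HET CD62Llo against 20.5 and 20.05 FPKM in HET CD62Lhi, without overlap. Its change of 0.43 log2 (SE 0.05, adjusted p = 0.00028) kept its call in each of those 21 alternative fits. The entry of the microRNA gene Mir3470a overlaps this locus over 4687 bp, and the sources used here do not give how reads there were shared out. Eif5a2 (chr3:28781311-28798846) had 2.72, 2.89 and 2.60 FPKM in HET CD62Llo against 1.91 and 1.98 FPKM in HET CD62Lhi, with a change of 0.34 log2 (SE 0.08, adjusted p = 0.0092). With 0.1 added to each FPKM in place of 1, its change was 0.47 log2. Its call was lost without HET CD62Lhi replicate 1 (adjusted p = 0.070) and after quantile normalization, where the change was 0.14 log2 (adjusted p = 0.23). Eif5a2 made up 0.679%, 0.773% and 0.627% of the summed FPKM of both eIF5A genes in HET CD62Llo and 0.490% and 0.513% in HET CD62Lhi, so Eif5a, which changed by 0.03 log2 and did not pass the test, held nearly all of it.

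Other eIF4E partners lay near the threshold. Eif4e had 24.1, 22.1 and 26.8 FPKM in HET CD62Llo against 19.2 and 19.9 FPKM in HET CD62Lhi, a change of 0.30 log2 (adjusted p = 0.059). Eif4ebp1 (chr8:27260327-27275656), the 4E-binding protein that releases eIF4E when mTORC1 phosphorylates it, had 11.5, 15.5 and 10.9 FPKM in HET CD62Llo against 9.65 and 8.89 FPKM in HET CD62Lhi. The groups did not overlap, but the change of 0.40 log2 did not pass the test (adjusted p = 0.076). With the replicate number as a block it was 0.47 log2 and passed (adjusted p = 0.024). Eif4ebp2 changed by -0.07 log2 and Eif4ebp3 by -0.11 log2, and neither passed the test.

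None of the 4 eIF1 and eIF1A genes, 3 eIF2, 5 eIF2B, 2 alternative initiator tRNA (Eif2a and Eif2d), 10 eIF4 and 3 subunit joining or anti-association genes (Eif5, Eif5b and Eif6) passed the test on the values as deposited. At equal summed FPKM, described below, 6 of the 10 eIF4 genes passed upward. So did Eif1a, Eif1b, Eif2a, Eif2b3, Eif2d, Eif2s3x, Eif5 and Eif5b of the other groups. After median centring, Eif4g3 and Eif6 passed downward. As deposited, Eif1, Eif2s1, Eif2s3x, Eif2b5, Eif4a1, Eif4a2, Eif4g1 and Eif6 had changes of -0.02, 0.03, 0.03, 0.00085, -0.02, 0.06, -0.04 and -0.16 log2. Over the whole set, 49 of the 59 members had a 95% interval of the change that lay within 0.5 log2 of 0. The fractions did not overlap for 30 of the 59 members (50.8%), against 53.9% of all tested genes. CD62Llo was higher for 14 of the 59 (23.7%), against 36.1% of all tested genes, and lower for 16 of the 59 (27.1%), against 17.9%.

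In KO mice fewer members passed the same comparison. Of the 59 members, 1 rose and 2 fell, while 16.2% of all tested genes passed, 11.9% higher and 4.26% lower. All 7 genes named Eef again had a change below 0, with the same exceptions on those scales, and a median of -0.17 log2 against 0.05 log2 over all tested genes. The libraries of the 2 fractions did not overlap for 14 of the 59 members (23.7%), against 34.8% of all tested genes. CD62Llo was higher for 6 of the 59 (10.2%), against 24.3% of all tested genes, and lower for 8 of the 59 (13.6%), against 10.5%.

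Eef1b2 had 381, 418 and 411 FPKM in KO CD62Llo against 465, 492 and 508 FPKM in KO CD62Lhi. It fell by 0.28 log2 (SE 0.05, adjusted p = 0.0067), without overlap and in all 11 fits that left out 1 library. Eef1g had 531, 567 and 581 FPKM in KO CD62Llo against 629, 620.1 and 639 FPKM in KO CD62Lhi. Its change of -0.17 log2 (SE 0.05, adjusted p = 0.042) did not pass with the replicate number as a block (adjusted p = 0.052) and was lost in 8 of 11 fits without 1 library.

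Eef1a1 had 5223, 5760.4 and 5507 FPKM in KO CD62Llo against 6004, 6628 and 6466 FPKM in KO CD62Lhi, and Eef2 had 1051, 1108 and 1098 FPKM in KO CD62Llo against 1219, 1256 and 1256 FPKM in KO CD62Lhi. Neither overlapped between the fractions, and both lay just outside the threshold, at -0.21 log2 (adjusted p = 0.052) and -0.20 log2 (adjusted p = 0.062). Eef1d had 108, 122 and 115 FPKM in KO CD62Llo against 125, 124 and 119 FPKM in KO CD62Lhi, which overlap. Eef2k also overlapped, at 2.47, 2.43 and 2.69 FPKM in KO CD62Llo against 3.12, 2.84 and 2.34 FPKM in KO CD62Lhi. The summed eEF1 subunits and eEF2 were at 7660 ± 343 FPKM in KO CD62Llo and 8850 ± 359 FPKM in KO CD62Lhi (SD, n = 3 each), a share of 1.23%, 1.31% and 1.30% of the summed FPKM in KO CD62Llo against 1.35%, 1.46% and 1.41% in KO CD62Lhi.

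The member that rose in KO CD62Llo was Eif4ebp1, with 13.3, 14.6 and 10.9 FPKM against 8.86, 7.88 and 7.75 FPKM in KO CD62Lhi. Every CD62Llo library lay above every CD62Lhi library, at a change of 0.59 log2 (SE 0.13, adjusted p = 0.015). Its call did not survive the loss of KO CD62Lhi replicate 2 (adjusted p = 0.054), of KO CD62Lhi replicate 3 (0.051) or of KO CD62Llo replicate 2 (0.060). Eif4enif1 had 23.2, 24.4 and 24.2 FPKM in KO CD62Llo against 21.3, 21.8 and 21.5 FPKM in KO CD62Lhi, again apart, with a change of 0.15 log2 (adjusted p = 0.058) that passed with the replicate number as a block (0.047). Eif5a2 changed by 0.14 log2 and Eif4e by 0.15 log2, and neither passed the test.

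As in HET, the KO fractions differed in the markers of other cells. The B cell markers summed to 23.9 to 58.7 FPKM in KO CD62Llo against 72.1 to 123 FPKM in KO CD62Lhi, the CD8 T and NK markers to 13.2 to 19.7 FPKM in KO CD62Llo against 30.0 to 37.1 FPKM in KO CD62Lhi, and the myeloid markers to 32.1 to 257 FPKM in KO CD62Llo against 13.7 to 20.3 FPKM in KO CD62Lhi. The plasma cell markers summed to 36.6 to 43.7 FPKM in KO CD62Llo against 31.6 to 33.3 FPKM in KO CD62Lhi, and Klrb1c averaged 1.33 FPKM in KO CD62Llo against 0.286 FPKM in KO CD62Lhi. Ebf1, Ncr1, Itgam, Cd14 and Sdc1 had means under 1 FPKM in both. The red cell markers overlapped, at sums of 3.94 to 156 FPKM in KO CD62Llo and 8.34 to 296 FPKM in KO CD62Lhi. Lyz2 reached 219 FPKM in KO CD62Llo replicate 2, and the B cell markers summed to 58.7 FPKM in KO CD62Llo replicate 3. Their part in the result was not tested. Without KO CD62Llo replicate 2, 1 member passed (Eef1b2 as above), and without replicate 3, 4 members passed, 1 higher and 3 lower.

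**Figure D3:**
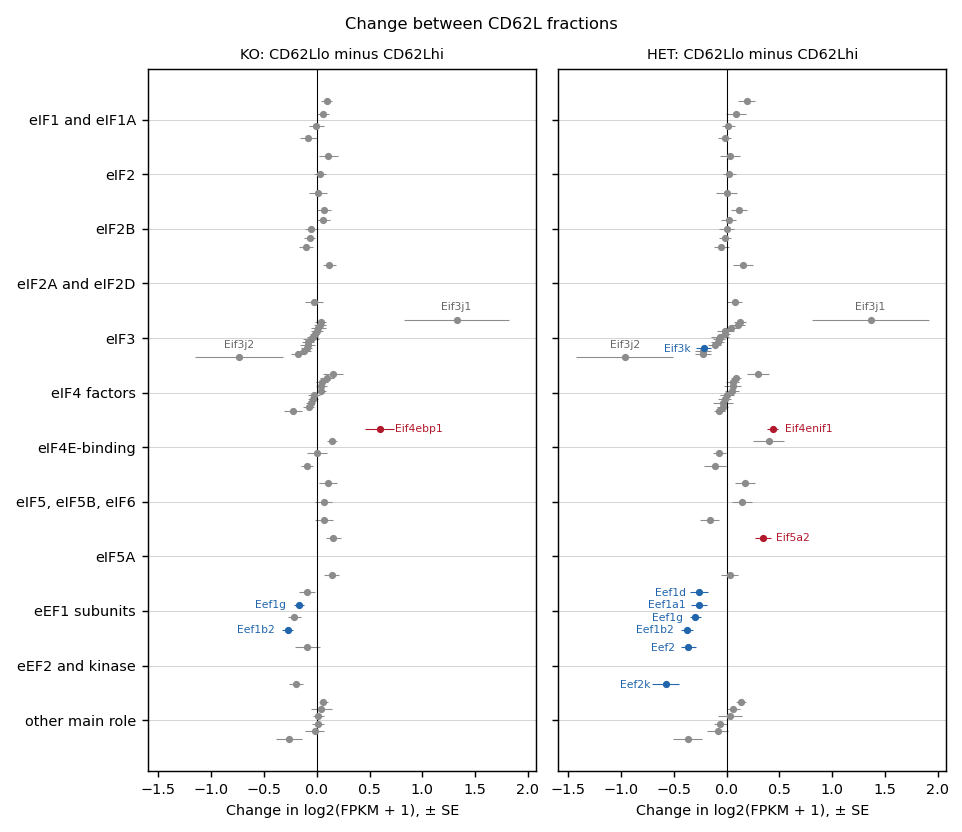
Change in log2(FPKM + 1) of each tested member between CD62Llo and CD62Lhi cells, with its SE, by role, in KO (left) and HET (right); red and blue mark members that passed the test upward and downward, and grey marks those that did not. The elongation factor genes lie left of 0 in both panels (Eef1a1 does not after quantile normalization), and the widest bars belong to Eif3j1 and Eif3j2, whose shared locus makes them uncertain.

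**Figure D4:**
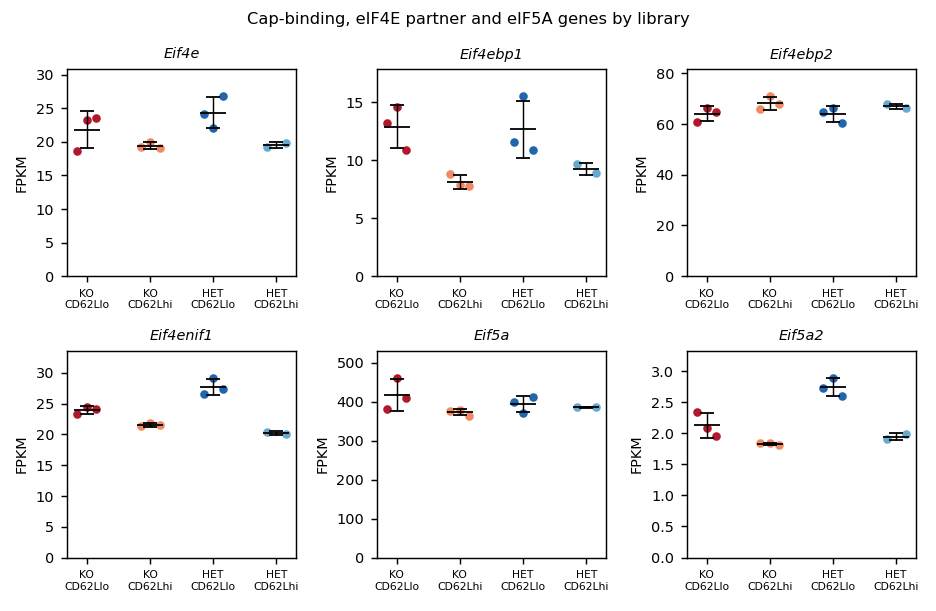
FPKM in each library (points), with group mean and SD, of Eif4e, 3 genes whose products bind it and the 2 eIF5A genes, for KO CD62Llo, KO CD62Lhi, HET CD62Llo and HET CD62Lhi from left to right; each axis starts at 0. The group means of Eif4enif1 and Eif5a2 are highest in HET CD62Llo, with KO CD62Llo between it and both CD62Lhi groups, while the Eif4ebp1 points of CD62Llo lie above those of CD62Lhi in both genotypes, a difference that passed the test in KO only.

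The second question of the design is how KO differs from HET within each fraction. In CD62Llo cells, 1 of the 59 members passed, against 4.6% of all tested genes (3.25% lower). It was Eif4enif1, lower in KO CD62Llo at 23.2, 24.4 and 24.2 FPKM than in HET CD62Llo at 26.6, 29.2 and 27.4 FPKM, a change of -0.20 log2 (SE 0.05, adjusted p = 0.039) without overlap. The call was kept with the replicate number as a block, but lost in 9 of the 11 fits without 1 library (adjusted p up to 0.14), after quantile normalization (0.12) and after median centring (0.082). Eif5a2 had 2.34, 2.08 and 1.95 FPKM in KO CD62Llo against 2.72, 2.89 and 2.60 FPKM in HET CD62Llo, also apart, and its change of -0.26 log2 did not pass (adjusted p = 0.072). The elongation factors were close: Eef1a1, Eef1b2, Eef1d, Eef1g and Eef2 had changes of 0.0059, 0.05, -0.02, 0.07 and 0.06 log2, none past the test. The groups did not overlap for 5 members (8.47%), all lower in KO, against 20.2% of all tested genes. For 57 of the 59 members the 95% interval lay within 0.5 log2 of 0.

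In CD62Lhi cells no member passed, and neither did any other tested gene (limma, 0 of 11431, or 0% of all genes; 3 members had an unadjusted p under 0.05). The 3 were Eif3g at -0.21 log2, Eif1b at -0.15 log2 and Eif3d at -0.13 log2, each lower in KO CD62Lhi. The groups did not overlap for 21 of the 59 members (35.6%), against 22.2% of all tested genes. KO was lower for 19 of the 59 (32.2%), against 14.4% of all genes. It was higher for 2 of the 59 (3.39%), Eif4a2 and Eif4enif1, against 7.83% of all genes. These counts rest on the 2 HET CD62Lhi libraries and on the values as deposited. The summed FPKM was 625384 to 637131 in KO CD62Lhi against 648182 and 648694 in HET CD62Lhi. The median change was -0.05 log2 over the members and -0.02 log2 over all genes, and scaling to equal summed FPKM, described below, moved the latter to 0.02 log2. Whether the counts hold on other scales was not tested. For 55 of the 59 members the 95% interval lay within 0.5 log2 of 0.

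Whether the fraction difference itself changed with genotype was tested as an interaction. No member passed (limma, 0 of 59; 3 members had an unadjusted p under 0.05), and 1 of 11431 genes passed (0.00875%). The 3 members were Eif4enif1 at -0.29 log2 (95% interval -0.44 to -0.13, adjusted p = 0.29), Eef2k at 0.49 log2 (0.10 to 0.88, adjusted p = 0.53) and Eif3g at 0.24 log2 (0.0048 to 0.47, adjusted p = 0.65). The larger number of members past the threshold in HET than in KO is therefore not shown to be a difference between genotypes.

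Directions within the whole set depended on how libraries were put on a common scale. The summed FPKM of a library was lower in CD62Llo, at 592198 to 608404 in KO CD62Llo against 625384 to 637131 in KO CD62Lhi and 569609 to 597344 in HET CD62Llo against 648182 and 648694 in HET CD62Lhi. In the HET fraction comparison the median change over all genes was 0.07 log2 as deposited, and quantile normalization and median centring shifted it by -0.10 log2 each, while scaling to equal summed FPKM, an alternative chosen after seeing these sums, shifted it by 0.14 log2. Over all genes the calls were 2148 higher and 1015 lower as deposited, 1431 and 1638 after quantile normalization, 1522 and 1862 after median centring and 4856 and 633 at equal sums. Of the 52 genes named Eif, 2 rose and 1 fell as deposited, 1 and 3 after quantile normalization, 2 and 11 after median centring, and 23 and 0 at equal sums. So no direction holds for the initiation factors as a set.

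The gap between the elongation and initiation factor genes was there on every scale, but most of these scales could hardly change it. Median centring and equal sums shift all genes of a library nearly alike, so the gap on those scales is no separate test. Quantile normalization alone could alter the gap, and there it was smaller in both genotypes but kept its direction. The median change of the genes named Eef was -0.30, -0.23, -0.40 and -0.14 log2 in HET, as deposited, after quantile normalization, after median centring and at equal sums, against 0.02, -0.01, -0.08 and 0.16 log2 for the genes named Eif. In KO the medians were -0.17, -0.13, -0.25 and -0.10 log2 against 0.01, -0.02, -0.07 and 0.09 log2 on the same 4 scales. Among single genes in HET, Eef1b2 and Eef2k fell and Eif4enif1 rose on all 4 scales. Eef1g and Eef2 fell on 3, all but quantile normalization, where their changes of -0.23 and -0.09 log2 did not pass. Eef1a1 fell as deposited and after median centring, was at -0.11 log2 without a call at equal sums, and turned to 0.12 log2 without a call after quantile normalization, which gives the few highest genes nearly fixed values. In KO, Eef1b2 fell and Eif4ebp1 rose on all 4 scales.

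**Figure D5:**
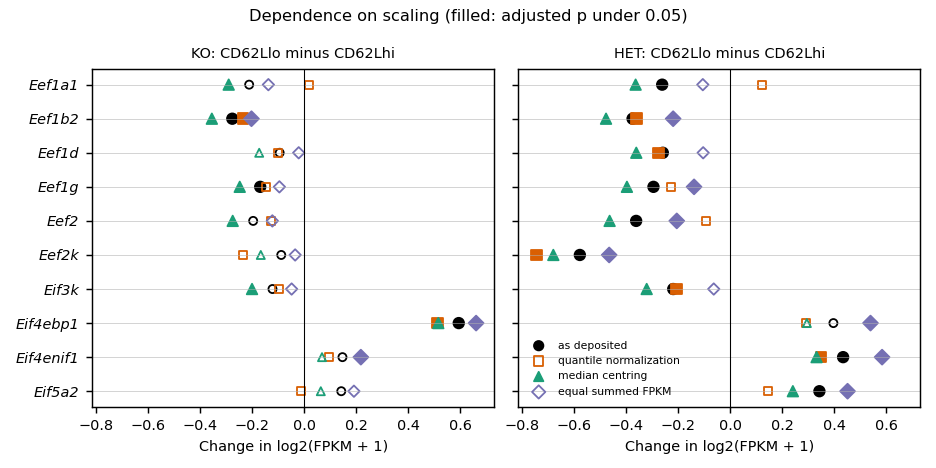
Change in log2(FPKM + 1) between CD62Llo and CD62Lhi cells of 10 members in KO (left) and HET (right), with FPKM as deposited (circles), after quantile normalization (squares), after median centring (triangles) and at equal summed FPKM (diamonds); filled symbols passed the test. Eef1b2 is filled and left of 0 on every scale in both genotypes, while Eef1a1 crosses 0 after quantile normalization.

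Some members cannot be read at face value. Eif3j1 and Eif3j2, copies of the loosely bound eIF3j subunit gene, share 25007 bp of one locus in the files. Eif3j1 took 8.34% to 89.5% of their summed FPKM across the libraries, while the sum itself was at 19.9 to 27.8 FPKM, so their single changes of 1.32 and -0.74 log2 in KO and 1.36 and -0.97 log2 in HET, none past the test, are uncertain. Eef1a1 and Eif5a have many processed pseudogenes, and Eif1a and Eif1ax are near-identical paralogues. How reads that match several places were handled is not stated in these sources, so their levels are uncertain. Of the 4 members that did not pass the filter, Eef1a2, the eEF1A of muscle and neurons, was at or under 0.0232 FPKM and the Y-linked Eif2s3y at or under 0.00764 FPKM in every library. Eif2c4 did not exceed 0.209 FPKM, nor Eif4e1b 0.142 FPKM.

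By name the set also takes in genes that act mainly elsewhere. Eif2c1 to Eif2c4 are older symbols of the Argonaute genes, Eif4a3 encodes a core of the exon junction complex, and Eif1ad and Eef1e1 are likewise outside the initiation and elongation steps. None of the 6 that were tested passed in any comparison of the fit described above, and their levels ran from Eif2c3 at 2.92 to 3.28 FPKM to Eif4a3 at 76.0 to 79.2 FPKM. In HET the nearest was Eif2c1 (Ago1), at 0.14 log2 (adjusted p = 0.054). Eif2c2 (Ago2), the slicing Argonaute, had 15.6, 13.0 and 19.6 FPKM in KO CD62Llo against 19.1, 18.8 and 19.8 FPKM in KO CD62Lhi, and 13.4, 16.2 and 16.1 FPKM in HET CD62Llo against 19.6 and 20.1 FPKM in HET CD62Lhi. The HET fractions did not overlap, but the change of -0.37 log2 did not pass (adjusted p = 0.077). It passed with the replicate number as a block, at -0.44 log2 (adjusted p = 0.032).

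Lists of connected genes give the setting of these changes, and their counts stand against 27.7% of all tested genes called in HET and 16.2% in KO. Of the 10 members listed for known TOP mRNAs, 5 fell in HET CD62Llo, namely Eef1a1, Eef1b2, Eef1d, Eef1g and Eef2, and none rose, with a median of -0.24 log2. In KO 2 of the 10 fell, with a median of -0.13 log2. These are the calls already given above, so this list adds no further ones. Of 9 other genes with known TOP mRNAs, 4 fell and 1 rose in HET, among them Fau at -0.52 log2, and 3 fell in KO, led by Tpt1 at -0.39 log2. Ribosome biogenesis genes gave 3 falls and no rise among 18 in HET (16.7%, below the share over all genes), led by the transcription factor gene Myc at -0.57 log2 (adjusted p = 0.0010). In KO none of them passed, and Myc was higher in KO CD62Llo than in HET CD62Llo by 0.35 log2 (adjusted p = 0.034).

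Genes listed for control of the factors did not move together. Of 21 mTORC1 and cap-control genes, 3 rose and 3 fell in HET (28.6%, near the share over all genes), the largest change being in Tbc1d7, a subunit of the TSC complex that restrains mTORC1, at 0.79 log2 (adjusted p = 0.0040). The lowest HET change in this list, -0.44 log2, was in Rps6, a ribosomal protein gene and not an upstream control gene. In KO 1 rose and 1 fell, of which Rragd, a Rag GTPase that brings mTORC1 to lysosomes, changed most at 0.34 log2. Of 11 eIF2 kinase and integrated stress response genes, 1 rose and 1 fell in each genotype: Sesn2 at 0.45 log2 in KO and 0.46 log2 in HET, and Trib3 at -0.57 log2 in KO and -0.66 log2 in HET. Both are known targets of ATF4, the factor induced by this response. Sesn2 was at 1.78 to 4.06 FPKM and Trib3 at 0.583 to 2.29 FPKM, so the added 1 understates both changes, as for Eef2k.

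Polyamine and hypusine genes supply the modification that eIF5A needs, and 1 of the 6 rose and 1 fell in each genotype. Odc1, which makes the first polyamine, had 47.8, 55.8 and 43.5 FPKM in KO CD62Llo against 25.4, 24.5 and 25.7 FPKM in KO CD62Lhi, and 72.5, 79.6 and 68.7 FPKM in HET CD62Llo against 25.1 and 23.9 FPKM in HET CD62Lhi. It rose by 0.93 log2 in KO and 1.55 log2 in HET, and was lower in KO CD62Llo than in HET CD62Llo, at -0.58 log2 (adjusted p = 0.0082). Srm, spermidine synthase, fell by 0.24 log2 in KO and by 0.34 log2 in HET. Further lists gave 3 rises and no fall among 5 genes for poly(A)-binding proteins and partners in HET (60.0%), and 1 rise in KO (Pabpc4, 0.21 log2). Mitochondrial translation factors gave 3 rises among 9 in HET (33.3%), led by Mtrf1 at 0.44 log2 (understated, at 0.978 to 2.17 FPKM), and none in KO. Termination and recycling factors gave 1 among 8 in HET (12.5%; Hbs1l, 0.31 log2), and none in KO. Cytosolic tRNA synthetase genes gave 2 falls among 22 in HET (9.09%), the larger in Aimp2 at -0.28 log2, and none in KO.

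The authors' deposited table of merged values, with 1 value per group, gave the same signs for Eef1b2, Eef2, Eif4ebp1, Eif4enif1 and, in HET, Eef1a1. It merges libraries of this series, so these signs are not independent of those above. Some core factors with small changes differed in sign. Eif2s1, Eif2s3x, Eif2b5, Eif3a, Eif4a2 and Eif5a had HET log2 ratios of -0.10 to -0.0063 in the authors' deposited table, against changes above 0 in the fit. The log2 ratio of CD62Llo over CD62Lhi in the authors' deposited table was -0.35 in KO and -0.50 in HET for Eef1b2, -0.26 in KO and -0.42 in HET for Eef2, and 0.54 in KO and 0.39 in HET for Eif4ebp1. For Eif4enif1 the authors' deposited table gave 0.08 in KO and 0.38 in HET, and -0.18 for KO CD62Llo over HET CD62Llo. Eef1a1 is listed at 0 for KO CD62Lhi in the authors' deposited table with a status of too many reads, so no KO ratio is given, while its HET ratio in the authors' deposited table was -0.33.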

How the data were processed

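Poly(A) RNA of sorted Tregs was selected per the labels' protocols and read as single 50-bp ends per the series' design text. The deposited values are FPKM. Tools named by the authors are Cufflinks 2.1.1, TopHat, CASAVA 1.8.2 and FastQC, with the build mm10, per the submitters' processing notes, and no settings are stated in these sources. FPKM is scaled to library size and gene length, so a change in a few abundant genes moves the values of all others. The authors' merged FPKM table was used as a description only.

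Entries of the 250 symbols with several were summed. The 11 libraries other than HET CD62Lhi replicate 3, which its label sets aside, were fitted with limma 3.58.1 in R 4.3.3 on log2(FPKM + 1), with 4 group means, a trended empirical Bayes step and Benjamini-Hochberg adjustment at 0.05 over the 11431 genes that reached 1 FPKM in 2 or more libraries. A 95% interval is that of the limma fit. The fit was also run on simulated data with independent noise and no shifts shared by a library. That run therefore does not bear on scaling or on the calls reported here. Read counts were not used here. Depth was estimated from the deposited FPKM intervals; 12.1% to 30.8% of entries with an FPKM above 1 lay above their own upper bound, so it is uncertain. The step size of low FPKM values gave similar relative depths, 1.08 to 4.14 times under the deepest library against 1.07 to 4.01 by the intervals.

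Members and gene lists were chosen with earlier results of these data known. Named genes were, in each comparison, the called members, a set list of core factors, the highest and lowest member of each role, and the called gene of each list that changed most; other called list genes, near-threshold members and Eif2c2 were named after their values were seen, and the TATAA window was widened after seeing the sequences. Start regions came from RefSeq (GRCm38.p6); 15 members had no listed start. A check of the sorted fractions by 1 further gene is not reported here.

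The labels number replicates alike across groups. Same-numbered KO and HET CD62Llo libraries deviated together, at r of 0.165, 0.153 and 0.148. Between CD62Llo and CD62Lhi, r was 0.131, 0.0684 and 0.178 in KO and 0.135 and 0.0732 in HET. For KO and HET CD62Lhi it was 0.0749 and -0.0325. Any pairing by number rests on correlation alone. Values with the replicate block stand beside results whose call it changed.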

Additional observations from a re-analysis of the deposited data

How the results depend on the processing

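Other pseudocounts, filters, the trend and summed entries left each count of called members within 1.5 times its value, though between KO and HET CD62Llo the member called without the trend was Eif5a2 and not Eif4enif1. Median centring gave 19 called members between HET fractions (median -0.10 log2) and 10 between KO fractions (-0.077). Equal summed FPKM gave 27 between HET fractions (median 0.15), a median of 0.073 between KO fractions, 2 members between KO and HET CD62Llo and an interaction median of -0.071. KO against HET CD62Llo gave 0 called members after quantile normalization, median centring or fitting the compared groups only. Quantile normalization turned Eef1a1 between HET fractions to 0.12. With the replicate number as a block, 9 members passed between HET fractions (3 higher, 6 lower, without Eef1d and Eif3k and with Eif4ebp1 and Eif2c2), 3 between KO fractions (without Eef1g and with Eif4enif1), 1 between KO and HET CD62Llo, 0 for KO against HET CD62Lhi and 0 for the interaction, where limma called 0 without the block too. It changed no other member's call.

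Leaving out 1 library at a time gave 4 to 12 called members between HET fractions (median -0.03 to 0.02), 1 to 6 between KO fractions (-0.01 to 0.01), 0 for KO against HET CD62Lhi (-0.06 to -0.02), 0 to 2 in CD62Llo (-0.06 to -0.0091) and 0 for the interaction (-0.02 to 0.03). The 4 came without HET CD62Lhi replicate 1, the 12 without HET CD62Llo replicate 1, and 6 came without HET CD62Lhi replicate 2 or HET CD62Llo replicate 3. Between KO fractions 6 and 5 came without HET CD62Llo replicates 1 and 3, and 1 without replicate 2 of either KO fraction or without KO CD62Lhi replicate 3. Where 1 HET CD62Lhi library is left, it is assumed to vary like the other groups.

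Putting HET CD62Lhi replicate 3 back, with 589 of 23846 entries above 0, left 0 members called between HET fractions (median 1.71), 0 between KO fractions and 0 for KO against HET CD62Llo, with medians of 1.54 for KO against HET CD62Lhi and -1.62 for the interaction. Between HET fractions Eef1a1, Eef1d, Eef2 and Eef2k then had changes of 0.34, 2.12, 0.10 and 0.15. Where no cause is named, it was not tested. Depth limits the members near 1 FPKM: Eif5a2 rests on about 137 to 320.0 fragments a library.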
